A study of Mus musculus with 4 samples.

Results

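Cells present peptides from their own cytoplasm on MHC class I molecules, and 10 genes of this pathway were followed here in Cxcl12CE-tdTomato+ cells of the mouse femur with (ABL) and without (CONT) bone marrow ablation. The 10 genes were chosen by symbol and all of them were found among the 28006 features counted. They are *H2-K1* and *H2-D1*, which encode the classical class I heavy chains, *B2m*, the light chain, *Tap1* and *Tap2*, the peptide transporter, *Tapbp*, the loading factor tapasin, *Psmb8*, *Psmb9* and *Psmb10*, the catalytic subunits of the immunoproteasome, and *Nlrc5*, a transactivator of class I genes. Mice were Cxcl12-iCreER; R26R(tdTomato/+), in which a bacterial artificial chromosome with *Cxcl12* sequence drives the tamoxifen-dependent recombinase, and they received tamoxifen 7 days before surgery. The right femur was ablated (ABL) and the left femur was left untreated (CONT), and tdTomato+ cells were sorted from pools of mice 7 days later, and their RNA was counted cell by cell in droplets. CONT and ABL are labelled with the same transgenes and the same tamoxifen, and the age of the mice is not given in the labels. The paper gives a mixed background for its mice, so other alleles may differ between pools. Each of 2 biological replicates gave 1 CONT and 1 ABL library, replicate 1 on Chromium v2 and replicate 2 on Chromium v3, so that replicate and chemistry cannot be told apart. The libraries are called CONT-1, ABL-1, CONT-2 and ABL-2 after condition and replicate, and values are given in this order.

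A class I molecule is built in the endoplasmic reticulum from a heavy chain and beta-2 microglobulin, and it reaches the cell surface after a peptide has been bound. The proteasome cuts cytoplasmic proteins into such peptides, the transporter carries them into the endoplasmic reticulum, and tapasin holds the empty class I molecule beside the transporter. Interferons raise most genes of the pathway in many cell types, and erythroid cells lose class I molecules as they mature.

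Called cells numbered 1459 to 3433 per library with a median of 5714 to 12896 unique molecular identifiers (UMIs) per cell, from 22889380 to 44784072 UMIs per library. Clusters of reticular-like cells, the *Cxcl12*-expressing stroma of the marrow, held 1154, 401, 1956 and 342 cells. Their 9 reticular markers, among them *Cxcl12*, *Adipoq* and *Lepr*, were all detected in every library and summed to 22291 to 27044 CPM (the UMIs of a gene per 1000000 UMIs of the class). The sort was not free of other cells: granulocyte-like cells numbered 147 to 1084 and erythroid-like cells 43 to 465 per library. ABL-2 stood apart from its label as the operated side of the same mice, since *Xist* was found in 0.118% of its cells and in 69.5% of the cells of CONT-2, against 44.9% in CONT-1 and 69.2% in ABL-1. Y-linked UMIs were found in 26.2%, 12.6%, 27.2% and 70.5% of the cells. The make-up of male and female cells thus differed between CONT-2 and ABL-2, and in replicate 2 sex cannot be told apart from condition. Whether CONT-2 and ABL-2 came from the same mice is therefore uncertain. CONT and ABL shared 5 cell barcodes in replicate 1 and 1 in replicate 2. Because UMIs were counted at 3′ ends, levels are compared between cells and libraries and not between genes. The classes are clusters of the same cells, so levels by class are a description without a test. None of the 10 genes took part in the clustering.

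*H2-D1* was at its highest in reticular-like cells in each of the 4 libraries. It reached 7718, 4842, 4920 and 4378 CPM. The class in second place differed between libraries and held 5614 CPM (pre-osteoblast-like cells of CONT-1), 3848 CPM (dendritic-like, ABL-1), 1864 CPM (endothelial-like, CONT-2) and 2767 CPM (monocyte/macrophage-like, ABL-2). Reticular-like cells therefore held more *H2-D1* than dendritic-like and monocyte/macrophage-like cells, the professional presenters of antigen, in each library in which those were found. In the order of class means, neighbouring classes overlapped in their ranges over libraries (T/NK-like and megakaryocyte-like cells, with 1 library each, in their counting intervals), except monocyte/macrophage-like above T/NK-like, osteoblast-like above cycling and cycling above erythroid-like cells. At the other end stood erythroid-like cells with 277 to 561 CPM over 4 libraries and chondrocyte-like cells with 363 CPM in ABL-2, the single library with at least 20 of them.

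*H2-K1* followed the same order at its ends. Reticular-like cells held 2984, 2360, 2591 and 2590 CPM. They ranked first in 3 of 4 libraries, and in CONT-1 the 42 pre-osteoblast-like cells stood above them with 3283 CPM. Erythroid-like cells held 98.9 to 284 CPM and chondrocyte-like cells 110 CPM. When every cell was thinned to 2000 UMIs, 98.0%, 96.3%, 95.3% and 88.9% of reticular-like cells had an *H2-K1* UMI. The shares of erythroid-like cells were 23.9%, 13.7%, 18.8% and 25.6%, and the original median depths were 10588 to 24382 UMIs in erythroid-like cells and 4487 to 12717 in reticular-like cells. Free RNA, as read from droplets with at most 300 UMIs, carried 1466, 1465, 2077 and 742 CPM of *H2-K1*. It made up at most 12.2%, 6.15%, 4.35% and 4.25% of the UMIs of erythroid-like cells. Because free RNA held more *H2-K1* than these cells, at this bound it could supply most of their *H2-K1* UMIs in replicate 1. In replicate 2 it could supply a smaller part. The levels and shares of erythroid-like cells are therefore upper values.

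**Figure D1:**
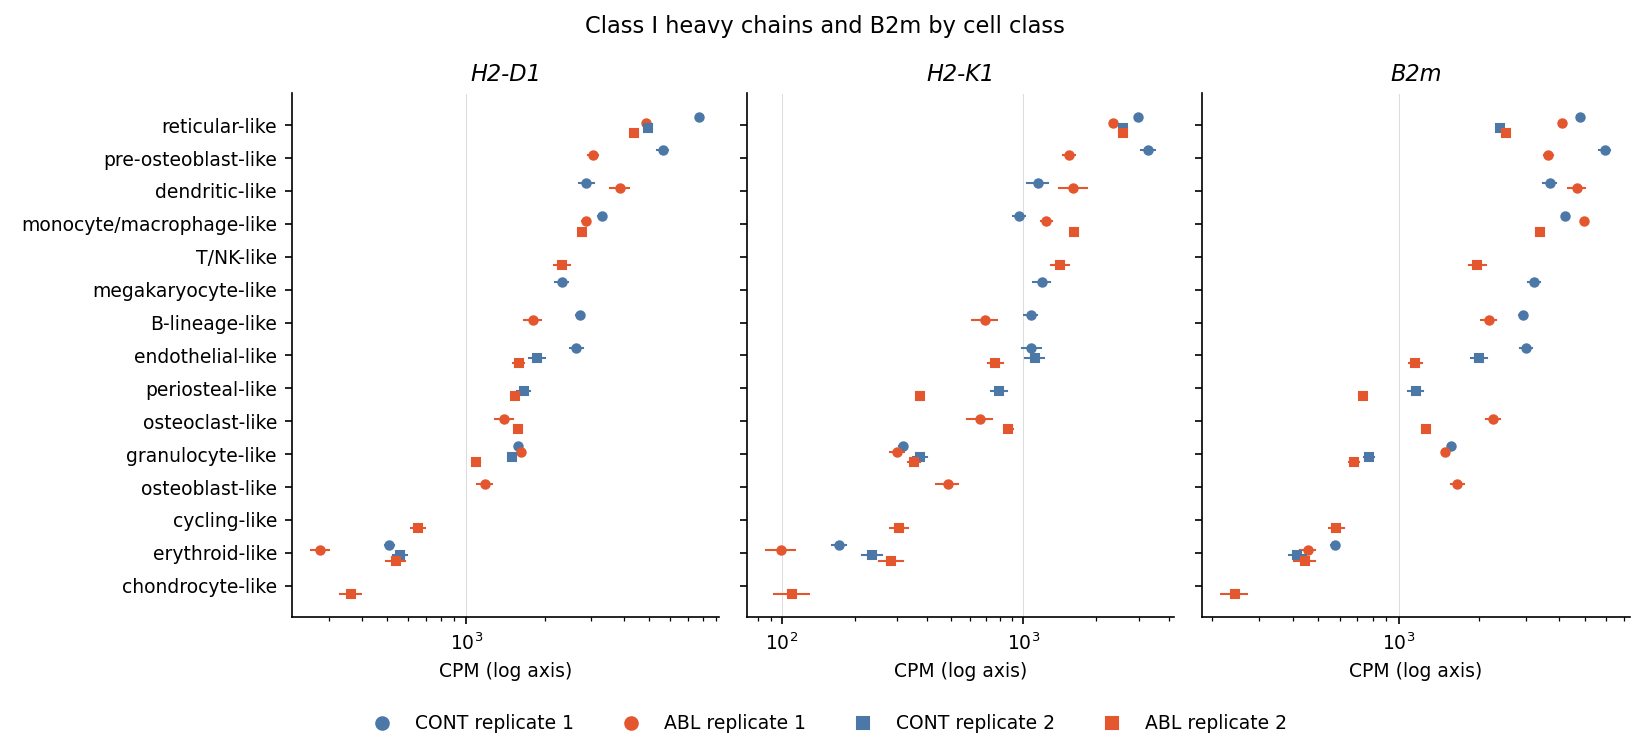
Level of *H2-D1*, *H2-K1* and *B2m* (CPM, log axis) by cell class, 1 point per library with at least 20 cells of the class and 95% exact Poisson intervals for counting error. Classes are ordered by mean *H2-D1* from reticular-like cells at the top (4378 to 7718 CPM) to chondrocyte-like cells at the bottom (363 CPM).

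*B2m* was not highest in reticular-like cells. It stood at 4794, 4103, 2413 and 2535 CPM in these cells. Pre-osteoblast-like cells held 5934 CPM in CONT-1 and 3648 CPM in ABL-1, and monocyte/macrophage-like cells 4215, 4989 and 3397 CPM in CONT-1, ABL-1 and ABL-2. Reticular-like cells ranked first in 1 library, CONT-2, in which no monocyte/macrophage-like cluster was found. *B2m* in reticular-like cells was higher in both libraries of replicate 1 than in both of replicate 2, with no overlap between the chemistries. Erythroid-like (417 to 577 CPM) and chondrocyte-like cells (242 CPM) were again lowest.

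Of the members, 7 lie on chromosome 17, where the mouse MHC is found, and the remaining ones on chromosomes 2 and 8 (GRCm38). *H2-K1* spans chr17:33996017-34000347 on the minus strand and *H2-D1* chr17:35262730-35267499 on the plus strand. *B2m* lies at chr2:122147686-122153083, and *Psmb10* (chr8:105935735-105938444) and *Nlrc5* (chr8:94434356-94527272) share chromosome 8. *Tapbp* lies at chr17:33915899-33929292, and *Psmb9* (chr17:34181987-34187764), *Tap1* (chr17:34187553-34197225), *Psmb8* (chr17:34197721-34201454) and *Tap2* (chr17:34203527-34216321) form a run of neighbours. *Psmb9* and *Tap1* start on opposite strands within the same stretch, and their promoter windows share 275 bases. *H2-K1* and *H2-D1* are near-copies of each other and of the *H2-Q* and *H2-T* genes, and how reads were divided among these copies is uncertain.

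The promoter windows of *H2-K1*, *H2-D1*, *B2m* and *Tap1* are shown, because the 3 genes of the class I complex and the transporter differ in their order over classes. Each window runs from 250 bases before to 50 bases after the transcript start of RefSeq on GRCm38.p6, 5′ to 3′ on the strand of the gene, and 8 of the 10 genes had such a window. The windows shown are chr17:34000298-34000597 (*H2-K1*, minus strand), chr17:35262844-35263143 (*H2-D1*, plus strand, with a RefSeq start inside the GENCODE gene), chr2:122147437-122147736 (*B2m*, plus strand) and chr17:34187306-34187605 (*Tap1*, plus strand). Capitals mark matches on either strand to 5 motifs. These are TTTC and TTC with 2 bases between (letters of an interferon response element), TTTC and TTTC with 2 bases between (its longer form), GGG and TTCCC with 2 bases between (kappaB), TGACG (the core of a cAMP response element) and CCAAT.
H2-K1: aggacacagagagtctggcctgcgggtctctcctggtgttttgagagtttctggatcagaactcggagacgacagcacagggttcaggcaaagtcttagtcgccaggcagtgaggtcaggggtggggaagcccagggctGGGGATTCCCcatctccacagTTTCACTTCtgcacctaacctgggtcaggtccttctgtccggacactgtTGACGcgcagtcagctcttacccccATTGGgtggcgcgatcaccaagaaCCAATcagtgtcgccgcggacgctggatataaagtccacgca
H2-D1: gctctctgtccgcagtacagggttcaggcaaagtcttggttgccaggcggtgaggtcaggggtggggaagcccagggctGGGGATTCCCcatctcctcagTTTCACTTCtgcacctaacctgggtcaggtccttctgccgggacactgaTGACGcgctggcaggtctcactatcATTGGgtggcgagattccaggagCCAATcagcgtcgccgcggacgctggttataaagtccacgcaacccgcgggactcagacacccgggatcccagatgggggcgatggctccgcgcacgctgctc
B2m: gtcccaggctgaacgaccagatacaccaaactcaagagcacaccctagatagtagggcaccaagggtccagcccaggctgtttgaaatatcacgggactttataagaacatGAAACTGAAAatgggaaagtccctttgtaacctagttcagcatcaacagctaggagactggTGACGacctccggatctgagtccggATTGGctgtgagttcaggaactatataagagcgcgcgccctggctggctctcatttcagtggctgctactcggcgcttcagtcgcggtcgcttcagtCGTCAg
Tap1: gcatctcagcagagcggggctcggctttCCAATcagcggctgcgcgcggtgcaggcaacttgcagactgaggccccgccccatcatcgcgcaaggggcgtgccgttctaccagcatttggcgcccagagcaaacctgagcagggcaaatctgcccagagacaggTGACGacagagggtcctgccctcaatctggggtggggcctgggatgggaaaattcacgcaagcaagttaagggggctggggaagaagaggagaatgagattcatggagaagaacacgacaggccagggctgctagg
*H2-K1* and *H2-D1* held the same 5 matches in the same order (kappaB, the shorter interferon motif, TGACG, and CCAAT once on each strand), with a longest identical run of 47 bases. The kappaB motif was found in 1.76% of 32817 promoter windows, the shorter interferon motif in 7.52%, and both together in 43 windows (0.131%), among them those of *H2-K1* and *H2-D1* and of no other member. *B2m* held the longer interferon motif, found in 3.43% of windows, and neither of these. TGACG (20.8% of windows) was present in 5 of 8 members and CCAAT (37.4%) in 6 of 8. In these counts *Tap1* and *Psmb9* hold the same sites, read on opposite strands of their shared bases, so the windows are not independent. A match is a run of letters and not a measured binding site.

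The genes of the transporter and of tapasin fell between these orders. *Tap2* in reticular-like cells measured 97.5, 82.8, 75.7 and 69.5 CPM. *Tapbp* measured 281, 237, 201 and 181 CPM. For both genes, reticular-like cells were first or second of the 5 to 10 classes in each library. *Tapbp* was also high in dendritic-like cells (247 CPM in CONT-1 and 265 CPM in ABL-1) and low in the T/NK-like cells of ABL-2 (48.9 CPM). *Tap1*, the partner of *Tap2* in the transporter, was highest in dendritic-like cells in replicate 1, with 60.3 CPM in CONT-1 and 83.6 CPM in ABL-1. Reticular-like cells of these libraries held 28.8 and 31.4 CPM of *Tap1*, beside 53.0 and 55.3 CPM in B-lineage-like cells. In replicate 2 reticular-like cells were second for *Tap1*, with 30.8 CPM beside 49.1 CPM in endothelial-like cells of CONT-2 and 64.7 CPM beside 67.6 CPM in monocyte/macrophage-like cells of ABL-2.

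In the 3 libraries with dendritic-like, B-lineage-like or T/NK-like cells, 1 of these classes held the highest level of each immunoproteasome subunit, except *Psmb10* in CONT-1, which was highest in monocyte/macrophage-like cells (156 CPM). *Psmb8* reached 558 and 544 CPM in dendritic-like cells of CONT-1 and ABL-1 and 563 CPM in T/NK-like cells of ABL-2. Reticular-like cells held 201, 246, 181 and 222 CPM, and ranked 6, 5, 1 and 5 among the classes. *Psmb9* stood at 270 and 264 CPM in B-lineage-like cells of CONT-1 and ABL-1, against 93.3 and 87.8 CPM in the reticular-like cells of the same libraries. *Psmb10* reached 148 and 251 CPM in dendritic-like cells, against 118 and 138 CPM in reticular-like cells of those libraries. The replicates cannot be compared class by class for these genes, since dendritic-like and B-lineage-like clusters were found in replicate 1 and the T/NK-like cluster in ABL-2. Erythroid-like cells held 13.3 to 20.6 CPM of *Psmb8* and chondrocyte-like cells of ABL-2 held 1.54 CPM (2 UMIs).

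*Nlrc5* was the least counted member. Pre-osteoblast-like cells held 34.3 CPM in CONT (9 UMIs, 95% exact Poisson interval 15.7 to 65.1) and 33.5 CPM in ABL (24 UMIs, 21.5 to 49.9) of replicate 1. Reticular-like cells held 5.72 and 9.35 CPM in these libraries, and 9.18 and 14.3 CPM in CONT-2 and ABL-2. After thinning, 0.953%, 2.00%, 2.403% and 2.05% of reticular-like cells had a UMI of the gene, and droplets with at most 300 UMIs carried 8.3 to 22.8 CPM. Free RNA made up at most 8.82%, 10.4%, 0.932% and 10.95% of the UMIs of reticular-like cells. No UMI was found in osteoclast-like cells of ABL-1, erythroid-like cells of ABL-2 or chondrocyte-like cells of ABL-2, where 3 counts would be 6.57, 2.79 and 2.32 CPM.

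**Figure D2:**
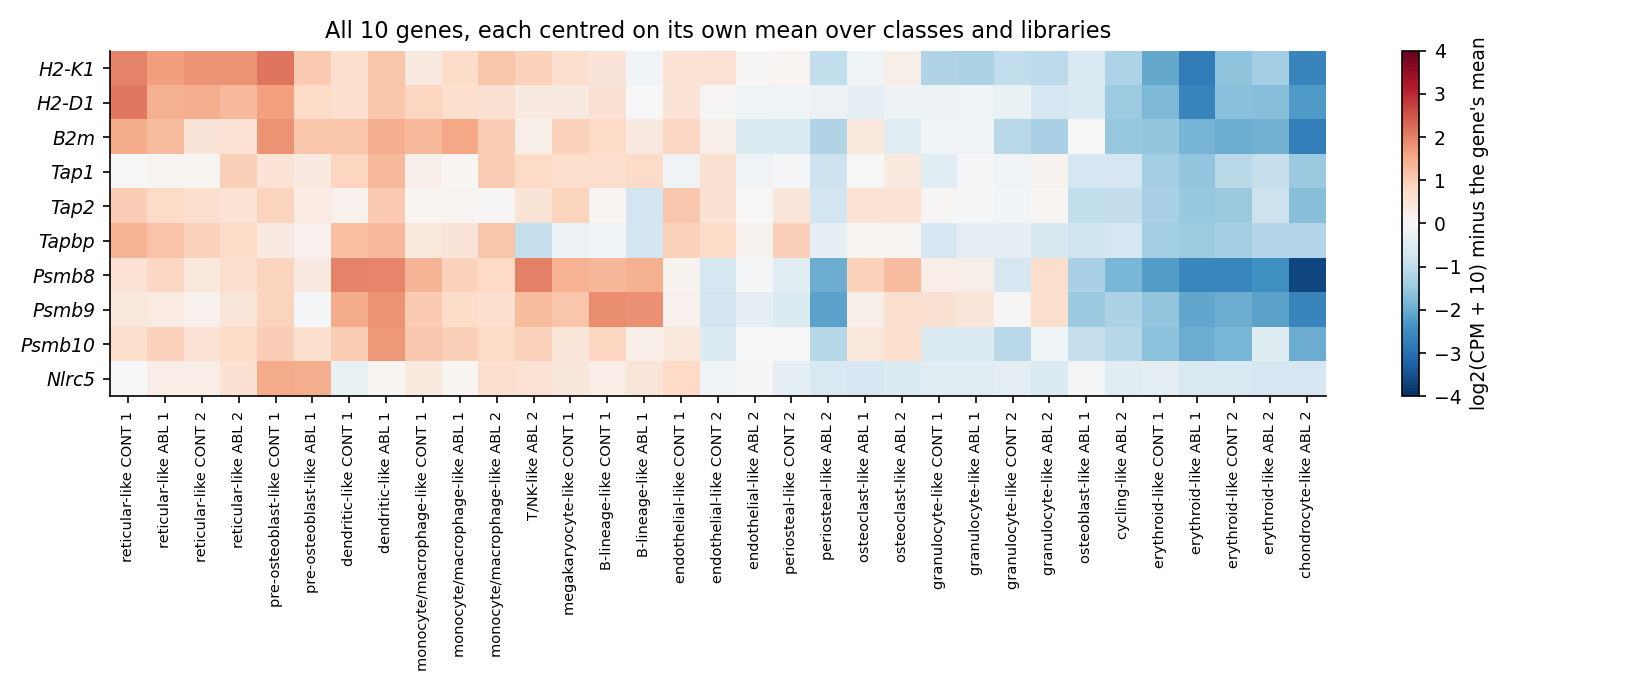
The 10 genes (rows) in each class and library with at least 20 cells (columns, ordered by the mean *H2-D1* level of the class), as log2(CPM + 10) minus the gene's mean over the columns (colour). Heavy chains are highest on the left, *Psmb8* and *Psmb9* in dendritic-like, T/NK-like and B-lineage-like columns, and nearly all genes are low in the erythroid-like and chondrocyte-like columns on the right.

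Over 33 class by library points, each pair of members correlated with a Pearson's r of 0.42 to 0.97 on the log2(CPM + 10) scale, with a median of 0.79. The highest value was that of *Psmb8* and *Psmb9* (0.97), followed by *H2-K1* and *H2-D1* (0.95), and the lowest that of *Tapbp* and *Nlrc5* (0.42). The genes outside the list most like the mean of the members were *Rgs2* (r = 0.87), a regulator of G protein signalling, *H2-Q7* (0.87), a nonclassical class I gene, *Zfp36l2* (0.87), an RNA-binding protein gene, *Fam168b* (0.86) and *Psme1* (0.84), a subunit of the interferon-inducible proteasome activator. The points share libraries and depth, so these correlations are given as a description.

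The design asks whether ablation changed the pathway within the stroma. In reticular-like cells none of the 10 genes passed the threshold of 0.05 for the adjusted p of edgeR (quasi-likelihood F test on summed UMIs with the replicate as a block), while 4.56% of the 11363 genes tested did. An unadjusted p under 0.05 (edgeR) was found for 1 of 10 members, *Tap1*, beside 1656 of the 11363 genes. DESeq2 called 0 members. The calls over all genes were 271 higher and 247 lower in ABL, and 362 higher and 181 lower without TMM scaling. The members' median log2 fold change was -0.08, beside -0.01 over all genes. Without TMM these medians were 0.03 and 0.09, so the sign of the members' median depends on the scaling.

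The classical heavy chains and *B2m* did not pass the threshold in reticular-like cells. *H2-D1* was lower in ABL in both replicates (7718 and 4842 CPM in replicate 1, 4920 and 4378 CPM in replicate 2), with a log2 fold change of -0.52 ± 0.52 (SE) and an edgeR adjusted p of 0.74. For *H2-K1* the log2 fold change was -0.27 ± 0.47 (edgeR adjusted p = 0.88), with -0.48 within replicate 1 and -0.06 within replicate 2. Here and below, values within a replicate are differences of log2 CPM after TMM scaling with a small prior count. The CPM printed beside them are not scaled in this way. *B2m* had a log2 fold change of -0.18 ± 0.49 (edgeR adjusted p = 0.94), and its replicates took opposite signs (-0.37 and 0.01). The levels of replicate 2 depend on the transcripts *Gm42418* and *Lars2*. With these out of the total, CONT-2 and ABL-2 held 3004 and 2769 CPM of *H2-K1*, and 2797.5 and 2711 CPM of *B2m*. A p above the threshold does not show that the levels were equal.

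*Tap1* had the lowest p of the members in reticular-like cells and its change was carried by replicate 2. It measured 28.8 CPM in CONT-1 and 31.4 CPM in ABL-1 (166 and 94 UMIs) and 30.8 CPM in CONT-2 and 64.7 CPM in ABL-2 (799 and 176 UMIs). The 95% exact Poisson intervals overlap in replicate 1 (24.6 to 33.5 and 25.4 to 38.4 CPM) and not in replicate 2 (28.7 to 33.0 and 55.5 to 75.0 CPM), and they cover counting error only. The fitted log2 fold change was 0.54 ± 0.24 (SE, edgeR adjusted p = 0.22), with -0.02 within replicate 1 and 1.00 within replicate 2. With TMM scaling the value of replicate 1 thus has the opposite sign to its unscaled CPM. The edgeR or DESeq2 adjusted p over the alternatives ran from 0.11 to 1.00, and without ABL-2 the fold change was -0.09. Without ABL-2, 0 of 10 members were called and 0 had an unadjusted p under 0.05 (edgeR, no block).

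Of the other members, *Nlrc5* and *Psmb8* were higher in ABL in both replicates, and *Tap2* and *Tapbp* were lower in both, and none of these changes passed the threshold. *Nlrc5* had a log2 fold change of 0.57 ± 0.35 (edgeR adjusted p = 0.48) on 33, 28, 238 and 39 UMIs. The fold changes were 0.19 for *Psmb8* and 0.10 for *Psmb10*, positive in both replicates, and 0.03 for *Psmb9*, which took opposite signs in the replicates. *Tap2* and *Tapbp* had -0.28 and -0.30, with edgeR adjusted p of 0.68 and 0.74.

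**Figure D3:**
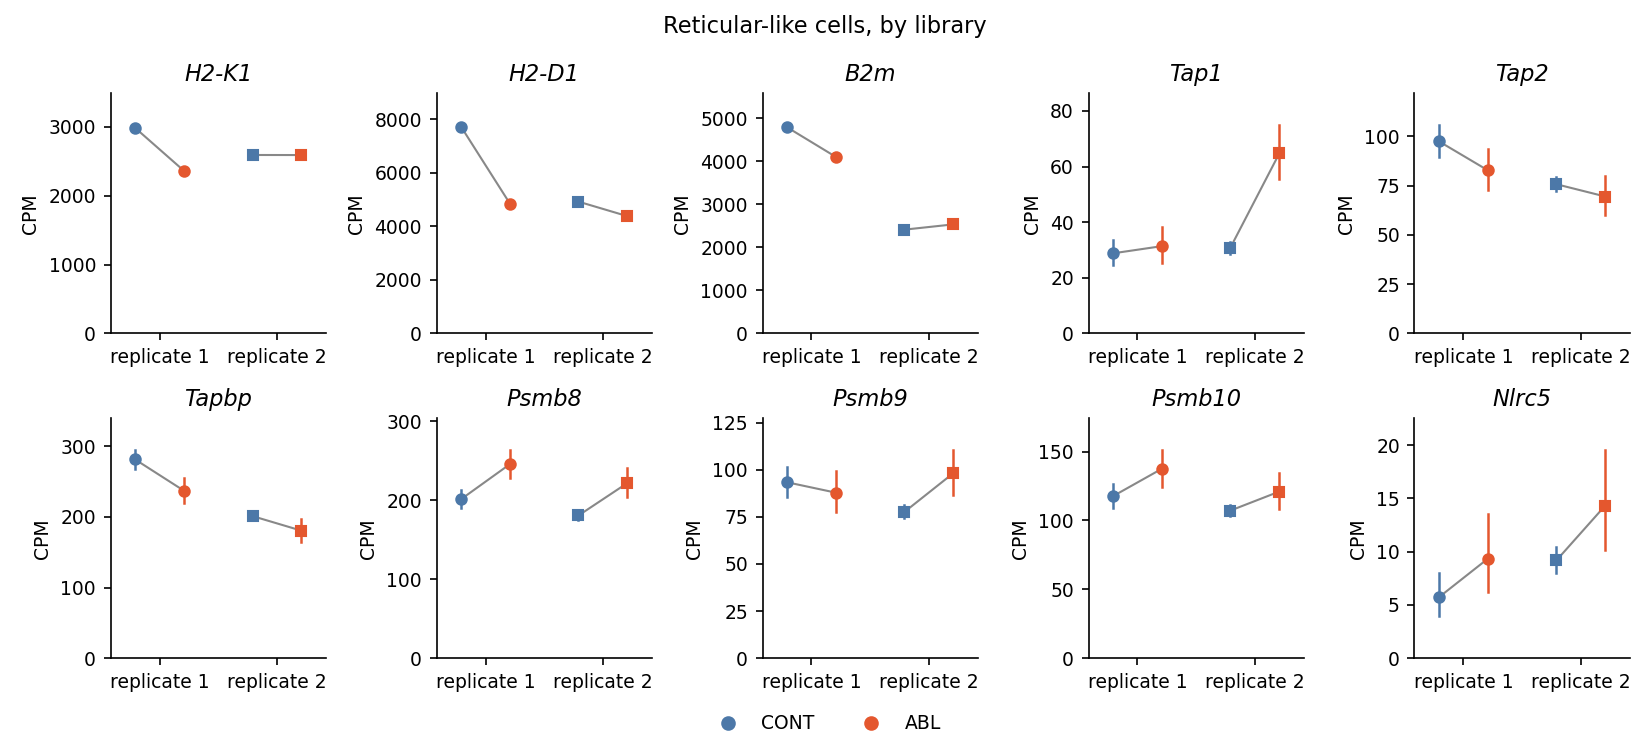
Level (CPM, axes from 0) of the 10 genes in reticular-like cells of the 4 libraries, CONT joined to ABL within a replicate, with 95% exact Poisson intervals for counting error. *Tap1* stands apart in ABL-2 (64.7 CPM), and *H2-D1* in CONT-1 (7718 CPM).

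Several quantities moved with the libraries of these sums. The granulocyte markers summed to 10415, 6213, 160 and 122 CPM in reticular-like cells and the erythroid markers to 12506, 10291, 271 and 2037 CPM. All 12 granulocyte markers and all 9 erythroid markers had UMIs, except *Ctsg*, *Cxcr2* and *Rhag* in ABL-2. Both classes held less *H2-D1* than reticular-like cells. The 6 dendritic markers summed to at most 3.67 CPM and were all at 0 in ABL-2, as were the 6 T/NK markers, which summed to at most 12.8 CPM. The 10 monocyte/macrophage markers summed to 5.32 to 110 CPM, with *Csf1r* at 0 in ABL-2. Marker lists of other mesenchymal classes moved in both directions. Higher in ABL in both replicates were the 7 pre-osteoblast markers, which summed to 1671, 3843, 1568 and 2799 CPM, and the 9 periosteal markers (554, 707, 458 and 810 CPM). So were the 7 chondrocyte markers (49.3, 122, 43.1 and 85.7 CPM) and the 6 mural markers (163, 199, 146 and 248 CPM). The 7 osteoblast markers were lower in ABL in both replicates (3958, 3001, 7327 and 2500.5 CPM). The 6 cycling markers took opposite directions (82.7, 54.1, 5.36 and 25.4 CPM). The transcript *Gm42418* took 1190, 2628, 135210 and 63478 CPM and the mitochondrial share was 3.71%, 3.93%, 4.22% and 6.02%. Without *Gm42418* and *Lars2* in the sums, 0 of 10 members were called as before, and the part of the other values in the results was not tested.

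In replicate 2, 1 cluster of reticular-like cells was led by *Cxcl9*, *Cxcl10*, *Fabp4* and *Iigp1*, which apart from *Fabp4* are interferon-stimulated genes, and not by reticular markers, although all 9 of these were detected. It held 16 cells of CONT (0.818% of the reticular-like cells) and 17 of ABL (4.97%). Its *Tap1* level was 255 CPM in CONT and 294 CPM in ABL, against 17.3 to 46.4 CPM in CONT and 18.1 to 60.8 CPM in ABL of the 6 other reticular-like clusters of replicate 2. *Psmb9* (338 and 226 CPM) and *Psmb8* (620 and 356 CPM) were also higher in this cluster than in the other 6. *H2-D1* (6468 and 2719 CPM) was above the other 6 in CONT (2286 to 6099 CPM) and within their range in ABL (507 to 6679 CPM). With the cluster left out, *Tap1* measured 28.5 CPM in CONT-2 and 45.8 CPM in ABL-2, and its log2 fold change was 0.33 (edgeR adjusted p = 0.61). No such cluster was found in replicate 1. Whether it stood apart depended on the integration. Without integration, *Cxcl9* and *Cxcl10* led a larger reticular-like cluster of replicate 2, followed by the reticular markers *Hp*, *Adipoq* and *Cxcl12*. That larger cluster held 113 cells of CONT and 255 of ABL and is not the same group of cells.

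Interferon-stimulated genes outside the pathway were followed in the same reticular-like sums as a comparison. Of the 20 genes of a comparison list, 18 were tested and 7 were called higher in ABL, with 0 lower, where 2.38% of all genes were called higher. The list's median log2 fold change was 0.49. The genes with the highest levels among those called were *Isg15*, a ubiquitin-like protein, *Irf7*, a transcription factor, *Gbp3*, a GTPase, and *Oasl2*. *Isg15* measured 89.5 and 169 CPM in CONT-1 and ABL-1, and 73.9 and 269 CPM in replicate 2, with a log2 fold change of 1.30 ± 0.28 (edgeR adjusted p = 2.5e-04). *Irf7* measured 28.1 and 48.4 CPM in replicate 1 and 19.0 and 93.7 CPM in replicate 2, with a log2 fold change of 1.49 ± 0.24 (edgeR adjusted p = 5.9e-08). In both replicates, ABL was above CONT for these genes.

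*Gbp3* measured 19.9 and 40.4 CPM in CONT-1 and ABL-1, and 25.1 and 60.7 CPM in replicate 2, a log2 fold change of 1.06 ± 0.24 (edgeR adjusted p = 4.8e-04). *Oasl2* measured 24.8 and 55.4 CPM in replicate 1 and 24.5 and 39.3 CPM in replicate 2, a log2 fold change of 0.82 ± 0.24 (edgeR adjusted p = 0.017). Without ABL-2, in a fit with no block, 0 genes of the list were called in edgeR, and the log2 fold changes were 0.89 for *Isg15*, 0.88 for *Irf7*, 0.67 for *Gbp3* and 1.00 for *Oasl2*. Leaving out any of the other libraries also gave 0 calls. The remaining 3 called genes were *Ifit1*, *Ifit3* and *Usp18*. The count fell from 7 to 4 without the interferon-led cluster, to 3 in DESeq2 and to 0 with no replicate block. That cluster was left out for its high level of this same list, so the fall to 4 is no independent result. The difference between the members and this list was not tested.

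**Figure D4:**
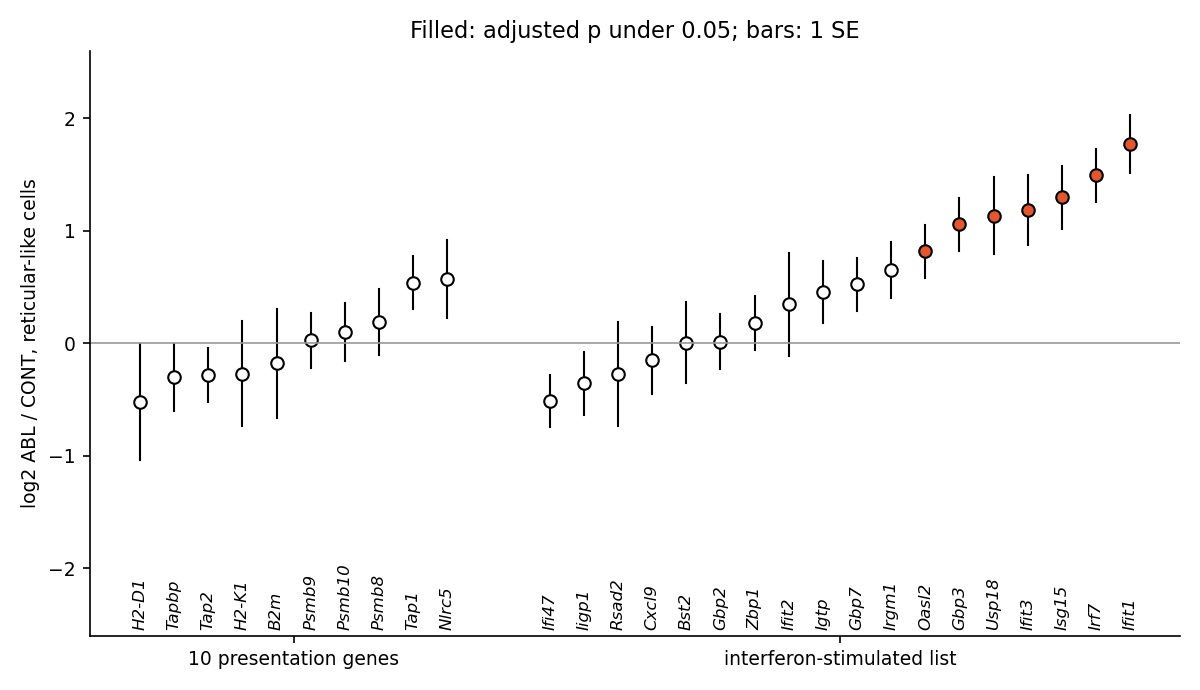
Fitted log2 ABL/CONT in reticular-like cells (vertical axis) for the 10 presentation genes and the 18 tested genes of the interferon-stimulated list, each set ordered by its value, with bars of 1 SE. Filled points have an edgeR adjusted p under 0.05, which 7 genes of the list and 0 of the 10 members reached.

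Other genes of class I presentation were read from lists. The constitutive proteasome and its activators had 0 of 18 genes called (edgeR, 0 with an unadjusted p under 0.05, and 0 in DESeq2), with a median log2 fold change of 0.14. The class I regulators, among them *Irf1*, had 0 of 23 called (4 with an unadjusted p under 0.05, 0 in DESeq2). Over all 11363 genes, 1656 had an unadjusted p under 0.05 in edgeR. Of 10 tested nonclassical and other class I genes, *H2-Q10* was called lower, at 105, 50.1, 88.8 and 35.7 CPM (log2 fold change -1.29 ± 0.24, edgeR adjusted p = 1.2e-05). The median of the list was -0.50, beside -0.01 over all genes tested. Of 6 peptide loading genes, *Erap1*, which trims peptides in the endoplasmic reticulum, was called lower. It measured 30.003 and 25.031 CPM in replicate 1 and 60.4 and 24.3 CPM in replicate 2 (log2 fold change -0.91 ± 0.25, edgeR adjusted p = 0.0082). DESeq2 called 0 of the 6 peptide loading genes. For both lists 2.17% of all genes tested were called lower. Without ABL-2 the fit has no block and sets CONT of both chemistries against ABL on v2. Its log2 fold changes were -1.11 for *H2-Q10* and -1.03 for *Erap1*, and CONT-2, with 60.4 CPM of *Erap1*, enters that fit.

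Among ligands that act on the pathway, *Ifng* had 2 UMIs in reticular-like cells of CONT-1 and 0 in the other 3 libraries, where 3 counts would be 1.00, 0.116 and 1.10 CPM, and it was not tested. *Il6*, a cytokine, was called lower in ABL, at 91.7, 25.031, 139 and 50.7 CPM (log2 fold change -1.75 ± 0.25, edgeR adjusted p = 1.1e-09). Without ABL-2, in a fit with no block that mixes the chemistries, it had -2.37. Of 6 tested class II genes, *H2-Ab1*, whose product presents peptides on professional presenters, was called higher (2.38% of all genes were) on 13.9 and 24.4 CPM in replicate 1 and 2.12 and 6.99 CPM in replicate 2 (log2 fold change 1.07 ± 0.34, edgeR adjusted p = 0.043). Without ABL-1, again in a fit with no block that mixes the chemistries, its log2 fold change was -0.19, although ABL was above CONT within both replicates. DESeq2 did not call it. With no replicate block in the model, and with all 4 libraries kept, 0 genes were called in edgeR in this class or in any other.

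All mesenchymal cells were then summed, with 1294, 681, 2056 and 1809 cells. All 10 members had a negative log2 fold change and 9 of 10 were lower in ABL in both replicates, with *Nlrc5* as the exception. The share of all genes lower in both replicates was not counted. The members' median was -1.07, beside -0.06 over the 13647 genes tested, and -0.59 within replicate 1 and -1.60 within replicate 2. In fits with no block, which mix the chemistries, the median was -0.36 without ABL-2, with 1 member positive, and -1.83 without ABL-1. In edgeR 0 of 10 were called, where 2.35% of all genes were (1.74% higher and 0.608% lower in ABL). Over all 13647 genes, 2187 had an unadjusted p under 0.05 (edgeR). Among the members such a p was found for 2, *Psmb9* and *Tap2*. Without ABL-2 these counts were 0 called and 0 unadjusted in edgeR. DESeq2 called 2 members lower, *H2-K1* (log2 fold change -1.51, adjusted p = 0.041) and *H2-D1* (-1.42, adjusted p = 0.036). Of 19539 genes, taken without the low-count filter used for edgeR, DESeq2 called 228 lower and 398 higher.

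*H2-K1* measured 2800 and 1577 CPM in CONT-1 and ABL-1 and 2499 and 546 CPM in replicate 2, a log2 fold change of -1.55 ± 0.85 that did not pass in edgeR (adjusted p = 0.41). *H2-D1* measured 7143 and 3269 CPM in replicate 1 and 4743 and 1453 CPM in replicate 2, a log2 fold change of -1.45 ± 0.97 (edgeR adjusted p = 0.53). How many of all genes had both ABL libraries below both CONT libraries, as the heavy chains did, was not counted. *B2m*, at 4625, 3127, 2349 and 845 CPM, had a log2 fold change of -1.06 ± 0.88 and overlapped between conditions.

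*Psmb9* measured 90.2 and 65.2 CPM in CONT-1 and ABL-1 and 75.8 and 19.4 CPM in replicate 2 (log2 fold change -1.26 ± 0.48, edgeR adjusted p = 0.20). *Tap2* measured 93.1 and 60.5 CPM in replicate 1 and 74.5 and 26.8 CPM in replicate 2 (log2 fold change -1.09 ± 0.43, edgeR adjusted p = 0.23). The other log2 fold changes ran from -0.47 for *Tap1* to -1.07 for *Psmb8*, with -0.98 for *Tapbp*, -0.83 for *Psmb10* and -0.77 for *Nlrc5*. In a further fit over mesenchymal cells with a Y-linked UMI and no *Xist* UMI, *Psmb9* (-1.65, edgeR adjusted p = 0.032) and *Tap2* (-1.59, edgeR adjusted p = 0.036) were called. That fit held 317, 75, 499 and 1274 cells and called 422 of 11444 genes lower.

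The make-up of the mesenchymal sum moved with condition. Reticular-like cells were 89.2%, 58.9%, 95.1% and 18.9% of mesenchymal cells. Clusters named periosteal-like from their markers were 0.618%, 1.62%, 2.48% and 42.4%, and 197 of the 767 such cells of ABL-2 were in a cluster led by *Prg4*, with 1 periosteal marker among its top 10 genes. In replicate 2 they held 1655 CPM of *H2-D1* in CONT and 1541 CPM in ABL, and 794 and 373 CPM of *H2-K1*. Mesenchymal cells without a class name were 31.1% of ABL-2 and held 659 CPM of *H2-D1* there. The sum over mixed classes alone cannot tell fewer cells with a high level from less RNA per cell. Within reticular-like cells *H2-D1* stood at 4920 CPM in CONT-2 and 4378 CPM in ABL-2, and at 7718 and 4842 CPM in replicate 1. How much of the change in the sum came from its make-up was not tested. Pre-osteoblast-like cells, in replicate 1 alone, held 5614 CPM of *H2-D1* in CONT (42 cells) and 3047 CPM in ABL (85 cells), and 3283 and 1543 CPM of *H2-K1*. They were not tested, as there was 1 library per condition.

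In the same mesenchymal sums 11 other class I genes were tested, with a median log2 fold change of -1.64, beside -0.06 over all genes. All 11 were lower in ABL in both replicates, and the share of all genes that were so was not counted. Of these *H2-Q10* was called, at 93.9 and 30.2 CPM in CONT-1 and ABL-1 and 85.4 and 5.35 CPM in replicate 2 (log2 fold change -2.85 ± 0.57, edgeR adjusted p = 0.024), where 0.608% of all genes were called lower. *Cxcl9*, a chemokine of the interferon-stimulated list, was called lower in these sums (80.6 and 25.4 CPM in replicate 1, 212 and 40.8 CPM in replicate 2, log2 fold change -2.06 ± 0.47, edgeR adjusted p = 0.038), and none of the 20 genes of that list was called higher. *Il6* was again lower (log2 fold change -2.37 ± 0.44, edgeR adjusted p = 0.020). Without ABL-2, in a fit with no block that mixes the chemistries, the log2 fold changes were -1.68 for *H2-Q10*, -2.66 for *Cxcl9* and -2.66 for *Il6*. The constitutive proteasome had 0 of 18 genes called (edgeR, 0 with an unadjusted p under 0.05, 0 in DESeq2), and its median of 0.23 had the opposite sign to that of the members.

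None of the tested members passed the threshold in the 2 hematopoietic classes with at least 20 cells in every library. In granulocyte-like cells 0 of 9 tested members passed in edgeR, 0 had an unadjusted p under 0.05, and 0.0216% of 9252 genes were called. In erythroid-like cells these were 0 of 9 and 0, with 0.791% of 7460 genes called (0.416% higher and 0.375% lower). DESeq2 was not run on these classes. *Nlrc5* was too low to be tested in either. *Psmb8* in granulocyte-like cells took opposite directions in the replicates, with 164, 156, 81.9 and 226 CPM (*Gm42418* and *Lars2* out of the total). The granulocyte-like sums also held B-lineage markers (57.8, 29.3, 56.2 and 499 CPM) and plasma markers (19.3, 16.9, 19.6 and 935 CPM). Mast/basophil markers summed to 13.1, 467, 1.25 and 247 CPM. The part of such cells in the values was not tested. *H2-D1* measured 1575 and 1620 CPM in granulocyte-like cells of CONT-1 and ABL-1 and 1493 and 1089 CPM in replicate 2 (log2 fold change -0.31 ± 0.69). In erythroid-like cells it measured 510 and 277 CPM in replicate 1 and 561 and 539 CPM in replicate 2 (log2 fold change -0.50 ± 0.52). With free RNA subtracted at its upper bound, and counts below 0 set to 0, this fold change turned to 2.49 and that of *H2-K1* to 1.72. The members' median in erythroid-like cells went from -0.22 to 0.91. At this bound free RNA could supply most *H2-K1* UMIs of these cells in replicate 1, so such values can rest on small remainders. They are not read as a rise in ABL. In that edgeR fit 2 members had an unadjusted p under 0.05, with 0 called, beside 370 of 6680 genes with such a p.

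The difference of the ABL-CONT change between reticular-like and granulocyte-like cells was tested as an interaction in edgeR, and 0 of 9 members passed, leaving out *Nlrc5* (0.189% of 11657 genes did). Against erythroid-like cells 0 of 9 members passed, and 0.105% of 11380 genes. For *H2-D1* the change in reticular-like cells minus that in granulocyte-like cells was -0.25 ± 0.87 (SE, log2), and minus that in erythroid-like cells -0.06 ± 0.27. For *H2-K1* the differences were -0.12 ± 0.79 and -0.01 ± 0.29. The interaction was not run with free RNA subtracted. At its upper bound free RNA could supply most *H2-K1* UMIs of erythroid-like cells in replicate 1, so small differences from these cells cannot be read as a like response. None of the members' unadjusted p values in these edgeR tests was under 0.05. A p above the threshold does not show that the classes responded alike.

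**Figure D5:**
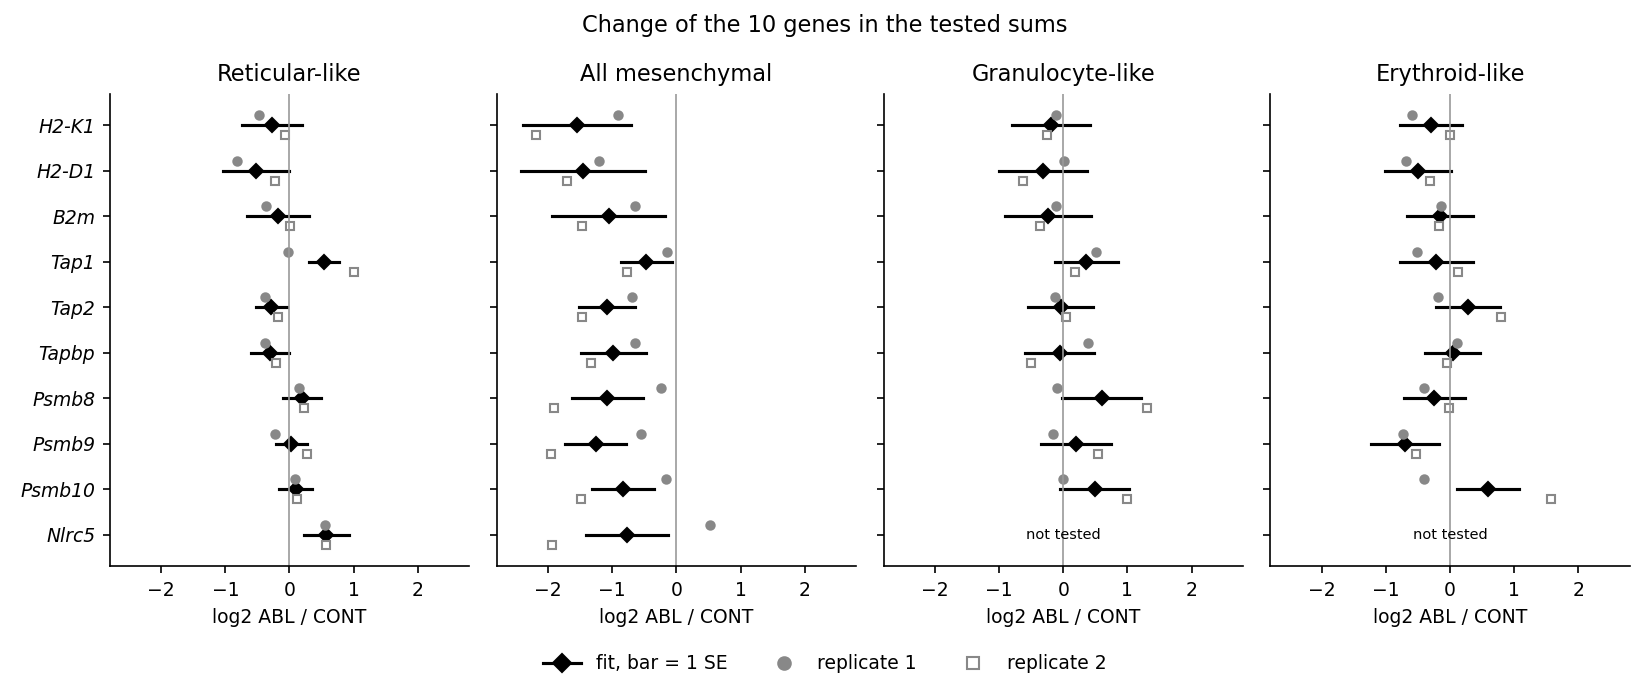
Log2 ABL/CONT of the 10 genes in 4 sums (panels: reticular-like, all mesenchymal, granulocyte-like and erythroid-like cells), as the fitted value with a bar of 1 SE (diamond) and within replicate 1 (filled circle) and replicate 2 (open square). In all mesenchymal cells every fitted value is below 0 (median -1.07), while in reticular-like cells they scatter about 0 (median -0.08).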

How the data were processed

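The deposited values were raw UMI counts per feature for all barcodes, which the authors made with Cell Ranger from mm10 with reporter sequences added (versions are not given in the sources used here), with no cell filter. Barcodes were kept with a minimum of 500 genes and a mitochondrial share up to 20% (v2), or 1000 genes and 15% (v3). A UMI floor was set at 0.1 times the 99th percentile over the 3000 largest barcodes. Cells were clustered in Seurat 5.3.0 (2000 variable genes, 30 components, resolution 0.8), mesenchymal cells after CCA within a replicate, and clusters were named from markers (at least 3 detected in 10% of cells). The 10 genes and the lists were left out of clustering. No doublets were removed in the values reported. Scrublet called 77, 7, 2 and 15 cells, under 0.5% of the cells in ABL-1 and CONT-2.

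Counts were summed per library and class (at least 20 cells in each library) and tested in edgeR 4.0.16 (R 4.3.3, TMM, filterByExpr, quasi-likelihood F test, Benjamini-Hochberg over all genes, threshold 0.05) with the replicate as a block. The block follows the study's contralateral design, which is uncertain for replicate 2. Deviations of CONT and ABL correlated within replicates (0.73 in reticular-like, 0.43 in all mesenchymal, 0.36 in granulocyte-like and 0.57 in erythroid-like cells), which includes chemistry. With 2 libraries per condition an exact permutation test that ignores the replicate block cannot give a two-sided p under 0.333. Replicates were separate pools, and nothing else is known of their variation. Shares were taken after thinning cells to 2000 UMIs, with exact 95% intervals. The fits were also run on simulated counts that held no difference between replicates or chemistries, so that run cannot check the block.

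The members and lists were chosen with earlier results of these data known. Named genes were all members, from each list the genes past the threshold (at most the 4 with the highest mean CPM), and the 5 genes with the highest correlation to the members among those with at least 50 CPM. *H2-K2*, *H2-T10*, *H2-L* and *H2-Bl* were not analysed here. Alternatives were no block, DESeq2 1.42.0, no TMM, no filter on low counts, other cell filters and resolutions, doublets removed, no integration, tdTomato or Y-linked cells alone, free RNA subtracted, and each library left out. Leaving out *Gm42418* and *Lars2*, or the interferon-led cluster (over 5000 CPM of the list), and all alternatives for the lists were chosen after seeing the data. Positions are those of GENCODE M21 and promoter windows those of RefSeq.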

Additional observations from a re-analysis of the deposited data

How the results depend on the processing

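In reticular-like cells 0 of 10 members were called under each alternative run. In all mesenchymal cells 0 of 10 were called except in DESeq2 (2) and in cells with a Y-linked UMI and no *Xist* UMI (2). The replicate block changed no call of a member. With no replicate block 0 genes were called in any class, against 518 in reticular-like, 321 in all mesenchymal, 2 in granulocyte-like and 59 in erythroid-like cells. The fits that leave out 1 library have no block either and assume that the lone sample varies like the others, and they called 0 to 28, 0 to 622, 0 to 34 and 0 to 10 genes.

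DESeq2 called 164 genes in reticular-like and 626 in all mesenchymal cells, and cells with a Y-linked UMI gave 15 and 877. In all mesenchymal cells 39 were called with free RNA subtracted, 675 without TMM, 1047 with no filter on low counts, 719 with the study's filter, 627 with the stricter filter, 661 with doublets removed and 596 in tdTomato cells. With free RNA subtracted 0 were called in granulocyte-like and 27 in erythroid-like cells, and 0 in granulocyte-like cells without *Gm42418* and *Lars2*.

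The 7 interferon-stimulated genes called higher in reticular-like cells became 0 with no replicate block, 4 without the interferon-led cluster, 3 in DESeq2, 1 in cells with a Y-linked UMI, and 0 to 0 with a library left out. The 1 other class I gene called lower in all mesenchymal cells became 0 with no replicate block, 0 with free RNA subtracted, 0 to 2 with a library left out, 2 without *Gm42418* and *Lars2*, with the stricter filter or in tdTomato cells, 3 without TMM, with no filter on low counts, with the study's filter or with doublets removed, 5 in DESeq2 and 6 in cells with a Y-linked UMI. The cause was not tested. Without thinning 99.7% and 96.8% of reticular-like cells of CONT-2 and ABL-2 had an *H2-K1* UMI, and 28.6% and 29.8% a *Tap1* UMI.

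*Psmb9* in reticular-like cells changed sign to -0.024 without the interferon-led cluster, -0.0023 with no filter on low counts and -0.26 in cells with a Y-linked UMI (log2). With free RNA subtracted at its upper bound, *H2-K1* became 0.25 and *Tapbp* 0.0044 in granulocyte-like cells. In erythroid-like cells, where small remainders can be left, *H2-K1* became 1.72, *H2-D1* 2.49, *B2m* 0.10 and *Psmb8* 1.00. With a library left out, log2 fold changes that changed sign ran, in reticular-like cells, from -0.64 to 0.31 for *B2m*, -0.091 to 1.07 for *Tap1*, -0.12 to 0.16 for *Psmb9* and -0.19 to 2.73 for *H2-Ab1*, and in all mesenchymal cells from -1.74 to 0.23 for *Nlrc5*. In granulocyte-like cells they ran from -0.76 to 0.14 for *H2-D1*, -1.09 to 0.64 for *B2m*, -0.22 to 0.23 for *Tap2*, -0.38 to 0.29 for *Tapbp*, -0.0038 to 1.30 for *Psmb8* and -0.21 to 0.69 for *Psmb9*. In erythroid-like cells they ran from -0.80 to 0.44 for *B2m*, -0.64 to 0.16 for *Tap1*, -0.21 to 0.78 for *Tap2*, -0.36 to 0.36 for *Tapbp*, -0.82 to 0.42 for *Psmb8*, -1.48 to 0.094 for *Psmb9* and -0.054 to 1.14 for *Psmb10*. *Nlrc5* is limited by its counts.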

Other observations

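In all mesenchymal cells the class I regulators had 0 of 23 genes called (edgeR, 3 with an unadjusted p under 0.05, 1 in DESeq2) and a median log2 fold change of -0.59. Over all 13647 genes of these sums, 2187 had an unadjusted p under 0.05 in edgeR. The peptide loading genes had 0 of 6 called (2 with an unadjusted p under 0.05, 0 in DESeq2) and the class II genes 0 of 6 (0 with an unadjusted p under 0.05, 0 in DESeq2), with medians of -0.42 and 0.25. In reticular-like cells the regulators had a median of -0.15 and the class II genes a median of 0.70. The same cells held 5.32 to 110 CPM of monocyte/macrophage markers and 1.10 to 42.7 CPM of B-lineage markers, and their part in the class II values was not tested.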
